A study of Mus musculus with 25 samples.

Results

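The barcodes described here were those of wild-type mouse testis that carried the RNA of the protamines and transition proteins, compared between 2 ways of taking the testis apart. They were chosen by 2 values: at least 300 unique molecular identifiers (UMIs) per barcode, and at least 1% of those UMIs over Prm1, Prm2, Tnp1 and Tnp2. Of the 48642 barcodes in the 25 libraries of the series analysed here, 26123 were wild-type, 24855 of these held at least 300 UMIs, and 19290 met both conditions. The 11 libraries came from whole testes of 11 C57BL/6J mice, with no transgene and no treatment in either group, and were made by Drop-seq, where droplets pair single cells with barcoded beads and each transcript caught by its 3′ end counts once. WT1 (mouse aged 3 months and 21 days) and WT2 (4 months and 2 days) were dissociated enzymatically, with collagenase, trypsin and DNase I at 37 °C. WT3 to WT11 (mice aged 3 months and 1 day to 9 months and 14 days) were dissociated mechanically in a tissue disaggregator, without enzymes, and the methods give no temperature for that step. The chosen barcodes numbered 58 in WT1, 457 in WT2 and from 408 (WT3) to 2488 (WT5) in the mechanical libraries. The sequencer was a MiSeq for WT1 and WT3 and a HiSeq for the other 9. The library was the replicate in every test. The p-values measure the spread between these libraries, each from a mouse of its own.

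When round spermatids elongate, the histones of the nucleus are replaced first by transition proteins and then by protamines, which pack the DNA of the sperm head. Transcription stops as the chromatin condenses. The messages for the head, the flagellum and the energy supply of the sperm are therefore made early and stored, and are translated later while the acrosome, the manchette and the tail are built. What is left of the cytoplasm is shed at the end as the residual body. Warm enzymatic digestion is known in other tissues to induce immediate early and heat shock genes during the digestion itself. The comparison addressed whether the protocol changes the RNA profile within a single stage, where the mix of cell types would matter less.

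The barcodes did not behave as a pure stage. In the 8 mechanical HiSeq libraries, from 64.6 to 83.4% of the barcodes with at least 300 UMIs met the rule, and the median share of the 4 genes in the chosen barcodes lay between 2.00 and 3.44%, close to their share of all UMIs of the same library, 1.88 to 3.22%. The chosen barcodes were also shallow, with a median of 388 to 671 UMIs in these libraries against 880 to 2311 in the other barcodes of at least 300 UMIs. In WT3 the median share of the 4 genes was 9.23%, in WT2 5.30% and in WT1 4.17%. The other barcodes held a median of 0.224 to 0.512% of their UMIs over the 4 genes. Near the threshold, 522 chosen barcodes lay between 1 and 1.2% and 491 others between 0.8 and 1%. Defining markers of elongating spermatids outside the rule (Prm3, Smcp, Odf1 and 7 others) were detected throughout. Their summed level, in counts per 1000000 UMIs of the chosen barcodes of a library (CPM), was 26097 in WT1, 25241 in WT2 and 20224 to 28032 in the mechanical libraries, against 5607 to 8625 in the other mechanical barcodes. Markers of pachytene spermatocytes, which should be absent from such cells, were present too. The 20 markers summed to 3391 CPM in WT1, 2365 in WT2 and between 2314 (lowest) and 5114 (highest, median 4553) in the mechanical libraries, where the other barcodes had 6685 to 8175. The label of elongating spermatids is therefore not used for the whole group below. A stricter share of at least 5% over the 4 genes, set beside the results, left 28 barcodes in WT1, 245 in WT2 and 112 to 492 in the mechanical libraries and brought the pachytene markers to 1845, 1739 and 1559 to 2399 CPM. These barcodes are part of the chosen ones and held 44992 UMIs in WT1, 360626 in WT2 and 231432 to 585092 in the mechanical libraries. A call lost at 5% cannot be told apart from a loss through fewer UMIs. At 5% the elongating markers outside the rule summed to 49675.5 CPM in WT1, 30896 in WT2 and 32354.5 to 43399 in the mechanical libraries. WT1 thus lay above that range and WT2 below it. Round spermatid markers were at 889 and 3067 CPM against 2743 to 4014, with WT1 below the range. The stricter share therefore did not match these markers between the protocols.

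**Figure D1:**
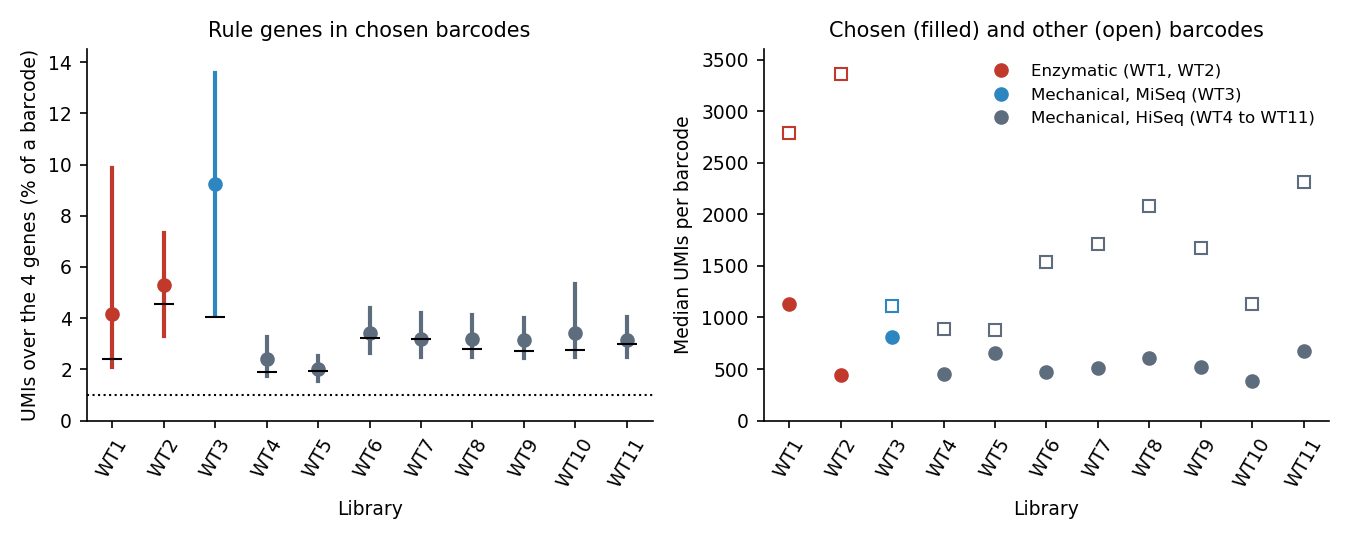
Left, share of each chosen barcode's UMIs over Prm1, Prm2, Tnp1 and Tnp2 by library (point, median; bar, interquartile range; dash, share over all UMIs of the library; dotted line, the threshold of 1%). Right, median UMIs of chosen (filled) and other (open) barcodes of at least 300 UMIs. In the 8 mechanical HiSeq libraries the median share, at most 3.44%, sat near the share of the whole library, whereas WT3 reached 9.23%.

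The summed chosen barcodes held 152778 UMIs in WT1, 567454 in WT2 and 510800 (WT3) to 2188924 (WT11) in the mechanical libraries, so that a gene at 20 CPM rested on about 3 UMIs in WT1. Mitochondrially encoded UMIs made up 0.821% in WT1, 1.84% in WT2 and 0.353 to 2.74% in the mechanical libraries. Of 19229 distinct chosen barcode sequences, 61 occurred in more than 1 library, with at most 7 in any of the 55 pairs of libraries. Of 95 measures, 28 had 1 mechanical library far from the other 8, and in 25 of these it was WT3. Leaving WT3 out kept all 74 calls of genes named by rule for the main comparison. For many of these genes WT3 was the mechanical library nearest to the enzymatic ones. Leaving it out could hardly remove their calls, so it is no check of them.

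The 4 genes that chose the barcodes are given as levels, with no test. Prm1, the first of the protamines, was at 14321 CPM in WT1 and 23188 in WT2, with 4993, 13628 and 26815 as lowest, median and highest of the mechanical libraries. Prm2, the second protamine, was at 17201 and 30323 CPM against 13226, 19495 and 32580.3. Tnp1, a transition protein, was at 9641 and 18502 CPM against 3237, 8925 and 14802. For these 3 genes both enzymatic libraries lay within the mechanical range, apart from Tnp1 in WT2. Tnp2 was at 8751 and 14189.7 CPM against 5431, 7619 and 11443, again with WT2 above the range. WT3 held the highest mechanical level of all 4.

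Among 17690 genes tested with edgeR (quasi-likelihood, Benjamini-Hochberg), 1743 (9.85%) reached the threshold of 0.05. Enzymatic dissociation gave higher levels for 755 of them (4.27% of genes tested) and lower levels for 988 (5.59%). Before adjustment, 4250 genes had a p under 0.05. The directions were 790 higher and 879 lower with library totals in place of TMM, and 963 higher and 496 lower by DESeq2. The median log2 fold change (enzymatic over mechanical) of all tested genes was -0.32, and that of the 5597 genes of at least 20 CPM was -0.27. Of these 5597 genes, 1123 (20.1%) were called, 285 (5.09%) higher and 838 (15%) lower, and these are the shares set below beside list members of at least 20 CPM. With DESeq2 these medians were 0.08 and -0.08, and values of the gene groups below are to be read against them. Among barcodes with at least 5% over the 4 genes, 328 of 12610 genes (2.6%) passed, 245 (1.94%) higher and 83 (0.658%) lower. The lists below are set at 5% beside these shares of all genes, with no match for level. At 1%, genes of at least 20 CPM were called more often than all genes (20.1% against 9.85%). For lists of abundant genes the 5% comparison may therefore overstate an excess. Of the 328 stricter calls, 261 had also passed in the whole group with the same direction, 218 higher and 43 lower, which is 79.6% of the stricter calls and 15.0% of the others. Of the 1601 main calls that could be tested there, 1580 had the same direction. The stricter barcodes are part of the chosen ones and hold 360626 of the 567454 UMIs summed in WT2. The overlap and the shared direction are therefore no independent evidence. Both enzymatic libraries lay above all 9 mechanical ones in 6.39% of tested genes and below all 9 in 12.3%. The calls rested on WT2 more than on WT1, with 416 calls without WT2 (164 higher, 252 lower) and 947 without WT1 (539 higher, 408 lower). Leaving out WT3 gave 2579. Platform was crossed with protocol only through single libraries. With platform as a covariate 1441 genes passed. Within HiSeq libraries alone (WT2 against WT4 to WT11) 2185 passed, and the MiSeq libraries, 1 of each protocol, allow no test.

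Several abundant genes of the sperm tail and of the shell around the nucleus were higher after enzymatic dissociation. Odf1, which encodes a protein of the outer dense fibres along the flagellum, was at 2042 CPM in WT1, 1069.7 in WT2 and 175, 349 and 448 (lowest, median and highest) in the mechanical libraries. Both enzymatic libraries thus stood above all 9 others, a log2 fold change of 2.05 (SE 0.24, edgeR adjusted p = 1.97e-06). Cylc2, which encodes cylicin 2 of the perinuclear theca, a shell between nucleus and acrosome, was at 2317 and 1184 CPM against 343, 548 and 651, again without overlap (1.62, SE 0.21, edgeR adjusted p = 1.64e-05). Both genes passed in all 25 alternative analyses. In barcodes of at least 5%, Odf1 was at 3778 and 1267 CPM against 164 to 521 (log2 fold change 2.32) and Cylc2 at 2089 and 1337 against 498 to 868 (1.07). Spa17, a gene of the fibrous sheath, was at 6238 and 4122 CPM against 1733 to 3284 (0.91, edgeR adjusted p = 0.00758), and Gpx4, a selenoprotein that hardens the mitochondrial capsule, at 393 and 654 against 129 to 517 (1.2038, edgeR adjusted p = 0.0185). Gpx4 overlapped the mechanical range through WT3, at 517. These 3, Odf1, Spa17 and Gpx4, were the only members of 29 outer dense fibre and fibrous sheath genes to pass, none was lower, and the median of the list was -0.11. The 3 were 10.3% of the list, against 5.09% of genes of at least 20 CPM, and 15% of those genes were lower. At 5%, Odf1, Gpx4 and Ccdc136 were higher, Spa17 did not pass (0.68, edgeR adjusted p = 0.0518), and Smcp (-0.75) and Ropn1 (-0.88) were lower, 10.3 and 6.9% of the list against 1.94 and 0.658% of all genes. Without WT1, Spa17 had an edgeR adjusted p of 0.107, and without WT2 Gpx4 had one of 0.693.

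**Figure D2:**
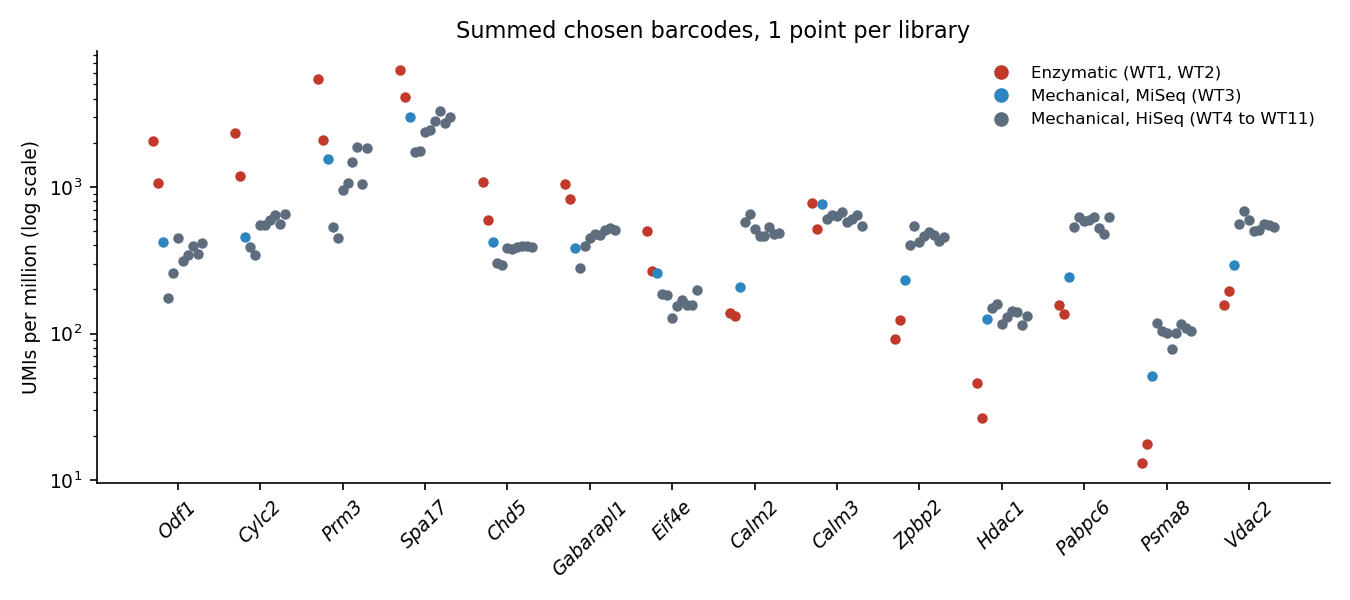
CPM (log scale) of 14 genes in the summed chosen barcodes, 1 point per library. The enzymatic libraries stood above all mechanical ones for Odf1 through Eif4e, below all of them for Calm2 and the last 5 genes, and overlapped them for Calm3, with WT3 the lowest mechanical library for Calm2, Zpbp2, Pabpc6, Psma8 and Vdac2.

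Of the 30 spermatid chromatin genes tested beside the 4 that set the rule, 2 were higher and 4 lower (2 and 3 of 20 among members of at least 20 CPM, 10 and 15%, against 5.09 and 15%). Prm3, an acidic relative of the protamines that is encoded beside them, was at 5433 CPM in WT1 and 2078 in WT2 against 451, 1064 and 1871 (1.5003, SE 0.33, edgeR adjusted p = 0.00417). The call was lost without WT1 (edgeR adjusted p = 0.284). Both libraries were above the mechanical range, WT2 only just. Chd5, a chromatin remodeller needed for the replacement of histones, was at 1087 and 590.4 CPM against 294, 389 and 423 (1.05, edgeR adjusted p = 0.00142, 0.0671 without WT1). The lower members were Hdac1 and Hdac3, 2 histone deacetylases, the acetyltransferase gene Kat5 and the histone variant gene H2afz. Hdac1 was at 45.8 and 26.4 CPM against 115, 132 and 158 (-2.08, SE 0.31, edgeR adjusted p = 6.3e-05). H2afz was at 6.55 and 22.9 CPM against 48.9 to 130.5 (-2.08, edgeR adjusted p = 0.0031). Neither overlapped the mechanical range, and all 4 lower genes are also expressed before the spermatid stage. In barcodes of at least 5%, Prm3 passed (1.19) while Chd5 (0.48), Hdac1 (-1.43) and H2afz (-0.79) did not (edgeR adjusted p between 0.205 and 0.596). There, Hils1, a histone H1 variant of spermatids, was lower (-0.85, edgeR adjusted p = 0.0271), and the 1 higher and 1 lower call were each 3.85% of the list, against 1.94 and 0.658% of all genes.

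The axoneme is the microtubule core of the tail, and the manchette is the microtubule sleeve that shapes the head. Of 48 such genes, 3 were higher and 11 lower, with a median of -0.54. Lower calls made up 26.2% of the 42 members of at least 20 CPM, against 15%. The 3 were Tekt5, a filament protein of the tail at 262 and 162 CPM against 74.9 to 116 (0.9982, edgeR adjusted p = 0.00435), Ccdc181 (0.64) and Dynlt1b, a dynein light chain. Dynlt1b was at 0 CPM in WT1 and 106 in WT2 against 4.61 to 15.7, so its call rested on WT2 alone. The lower ones had the smallest adjusted p for Dnal1, another dynein light chain (6.55 and 5.29 CPM against 17.6 to 56.5, -2.79, edgeR adjusted p = 0.00169), and Ccdc39, which sets the spacing of dynein arms (65.5 and 143 against 157 to 400.2, -1.46, edgeR adjusted p = 0.00215). At 5%, 1 member was lower and 2 were higher, 2.13 and 4.26% against 0.658 and 1.94%. Without WT2 the edgeR adjusted p of Dnal1 was 0.168. Without WT1 that of Ccdc39 was 0.056 and that of Tekt5 0.0605.

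Genes of the acrosome, the secretory cap of the sperm head, passed in 1 direction only. Of 39 members, 10 were lower and 0 higher, with a median of -0.53, and 11 had both enzymatic libraries below all mechanical ones. All 10 were among members of at least 20 CPM, 26.3% of 38 against 15%. Zpbp2, a zona pellucida binding protein, was at 91.6 CPM in WT1, 123 in WT2 and 233, 455 and 542 in the mechanical libraries (-1.96, SE 0.28, edgeR adjusted p = 3.97e-05). Its paralog Zpbp was at 157 and 187 CPM against 208 to 478 (-1.25, edgeR adjusted p = 0.00245). Dpy19l2, which anchors the acrosome to the nucleus (-2.26, edgeR adjusted p = 0.000261), and Adam1b, a membrane protein of the fertilin family (-2.07, edgeR adjusted p = 0.000551), were lower too. The lowest mechanical library was WT3 for Zpbp2 (233 CPM), Zpbp (208), Dpy19l2 (52.9) and Adam1b (58.7). By DESeq2, 6 were lower and 0 higher. At 5%, 0 of 39 members passed in either direction in edgeR, with 14 lower and 0 higher at an unadjusted p under 0.05. The median was -0.47, and Zpbp2 was at 22.2 and 94.3 CPM against 115 to 208 (-1.07, edgeR adjusted p = 0.0855). Without WT2 the edgeR adjusted p of Adam1b was 0.0809.

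RNA storage and translation genes also leaned lower. Of 35 members, 9 were lower and 2 higher, with a median of -0.71, and at 5% the counts were 2 (5.71%, against 0.658%) and 0. All 9 were among members of at least 20 CPM, 31% of 29 against 15%. Pabpc6, a testis poly(A) binding protein, was at 157 CPM in WT1, 136 in WT2 and 243, 581 and 622 in the mechanical libraries (-1.92, SE 0.29, edgeR adjusted p = 7.23e-05). Pabpc1, the widely expressed member of the same family, was at 2945 and 2072 CPM against 1999, 4750.0 and 5638 (-0.97, edgeR adjusted p = 0.0121). Both enzymatic levels of Pabpc1 lay between that of WT3, the lowest, and those of the 8 HiSeq libraries, and its edgeR adjusted p was 0.0519 without WT1 and 0.192 without WT2. Tdrd7, a protein of the chromatoid body in which spermatids hold RNA, had a log2 fold change of -1.47 (edgeR adjusted p = 0.00595, 0.0609 without WT1 and 0.0725 without WT2). The 2 higher members were Cpeb2 (0.72) and Eif4e, the cap-binding initiation factor. Eif4e was at 497 and 268 CPM against 127, 169 and 258 (0.99, SE 0.24, edgeR adjusted p = 0.00844, 0.171 without WT1), with WT3 the nearest mechanical library. Another poly(A) binding gene, Pabpn1 of the nucleus, was among the 10 higher genes with the smallest adjusted p, at 72.0 and 93.4 CPM against 6.12 to 21.5 (2.58, edgeR adjusted p = 1.57e-05, 0.0852 without WT2), but it overlaps another counted gene on its strand, Gm20521, so its reads may be shared.

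Calmodulin, the calcium sensor of the tail and acrosome, is encoded by more than 1 gene, and the test gave a call for Calm2 but not for Calm3. Calm2 (chromosome 17, 87433412 to 87446935 in GRCm38) was at 137 CPM in WT1, 132 in WT2 and 208, 487 and 655 in the mechanical libraries. The enzymatic libraries were below all 9 others (-1.88, SE 0.29, edgeR adjusted p = 0.000151), but WT3, the lowest of the 9, lay nearer to them than the 8 HiSeq libraries did. Calm3 (chromosome 7, 16915379 to 16924114) was at 772 and 516 CPM against 541, 635 and 765 (-0.07, SE 0.21, edgeR adjusted p = 0.845), and its small difference changed sign between scalings. Calm2 passed in all 25 alternatives. At 5%, the log2 fold changes were -1.33 for Calm2 and -0.06 for Calm3. Of 26 calmodulin and calcium genes, 7 were lower and 1 was higher, with a median of -0.05, and at 5% 2 (8.33%, against 0.658%) were lower and 0 higher. All 7 were among members of at least 20 CPM, 31.8% of 22 against 15%. The higher one, Iqcf4, was at 1735 and 1285 CPM against 409.6 to 1153 (0.94, edgeR adjusted p = 0.0216, 0.143 without WT1 and 0.127 without WT2), and the chaperone Calr was lower (-1.10, edgeR adjusted p = 0.00698, 0.145 without WT2).

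Of 40 genes of sperm glycolysis and energy supply, 7 were lower and 2 higher (median -0.39). These were 20 and 5.71% of the 35 members of at least 20 CPM, near the 15 and 5.09% of all genes at that level. Vdac2, a channel of the outer mitochondrial membrane, was at 157 CPM in WT1, 196 in WT2 and 296, 549 and 685 in the mechanical libraries (-1.57, SE 0.26, edgeR adjusted p = 0.000238). Cyct, the testis cytochrome c, was at 45.8 and 56.4 CPM against 68.5 to 203 (-1.62, edgeR adjusted p = 0.00175). Slc2a3, a glucose transporter (-1.49, edgeR adjusted p = 0.00881, 0.0781 without WT1 and 0.158 without WT2), and Slc25a31, the testis ADP/ATP carrier (-2.38, edgeR adjusted p = 0.00908, 0.065 and 0.0809), were lower too. The higher ones were Atp5e (1.06) and Ak1 (0.87). The summed list stood at 16161 and 17975 CPM against 20803 to 22848, below every mechanical library, and at 5% at 17714 and 18523 against 19288 to 23791, although only Atp5e passed there. In the other barcodes it was also below every mechanical library, at 16554 and 20395 CPM against 24363.5 to 26628, so the shortfall was not limited to the chosen barcodes.

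The ubiquitin and proteasome genes, which clear histones and cytoplasm, gave 7 lower and 1 higher (Fbxo24, 1.04) of 47, with a median of -0.44, and 3 lower and 0 higher at 5%. The 7 were 16.3% of the 43 members of at least 20 CPM, against 15%, and the 3 at 5% were 6.38% of 47, against 0.658%. Psma8, the subunit particular to germ cell proteasomes, was at 13.1 and 17.6 CPM against 50.9, 105 and 118 (-2.56, SE 0.39, edgeR adjusted p = 9.82e-05). In WT1 this was 2 UMIs and in WT2 10. The subunit genes Psmb1 (-1.65), Psmd12 (-1.29) and Psmd8 (-1.18) had edgeR adjusted p of 0.00252, 0.00266 and 0.00593, the last lost without WT1 (0.12), and of them Psmd8 passed at 5% (-1.06). Of 26 testis kinases and phosphatases, 5 were lower and 0 higher (median -0.51), 26.3% of the 19 members of at least 20 CPM against 15%, and 1 (4.35%, against 0.658%) was lower at 5%. They included Prkar1a, a regulatory subunit of protein kinase A (-1.15, edgeR adjusted p = 0.00543, 0.213 without WT2), and Ppp1cc, the phosphatase of the sperm tail (-1.81, edgeR adjusted p = 0.0185, 0.744 without WT2), at 91.6 CPM in WT1 and 14.1 in WT2 against 79.1 to 225. The calcineurin genes Ppp3cc (-1.02, edgeR adjusted p = 0.0258) and Ppp3r2 (-0.72, edgeR adjusted p = 0.0366) were near the threshold, and leaving out any of 7 and of 9 libraries, respectively, took them past it.

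Of 21 residual body and lipid droplet genes, Gabarapl1 was higher and Lamp1 lower, each 7.69% of the 13 members of at least 20 CPM, against 5.09 and 15%. Gabarapl1, which acts in autophagy, was at 1041 CPM in WT1, 832 in WT2 and 279, 468 and 528 in the mechanical libraries (1.0014, SE 0.21, edgeR adjusted p = 0.00228), with no overlap. Lamp1, of the lysosome membrane, was at 144 and 146 CPM against 166 to 385 (-1.15, edgeR adjusted p = 0.00686, 0.0706 without WT1 and 0.0832 without WT2). Neither passed at 5% (edgeR adjusted p = 0.307 and 0.235), where Abhd5, a lipase coactivator gene, was lower (-0.94, edgeR adjusted p = 0.0418), 5.26% of the list against 0.658% of all genes. In the list of nuclear RNAs, Malat1, which stays in the nucleus, was at 478 and 328 CPM against 476, 892 and 1075 (-1.14, edgeR adjusted p = 0.00384, 0.125 without WT2), with WT1 at the level of WT3. Snhg3 was lower as well (-1.44, edgeR adjusted p = 0.0188, 0.131 and 0.103 without WT1 or WT2), and Rn7sk, the third of 13 to pass, was higher but rested on 3 UMIs in WT1 and 1 in WT2. The 2 lower ones were 33.3% of the 6 members of at least 20 CPM, against 15%. The 1 higher was 7.69% of the 13 tested, against 4.27% of all genes. At 5%, 0 of 10 passed in edgeR (1 higher and 1 lower at an unadjusted p under 0.05).

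**Figure D3:**
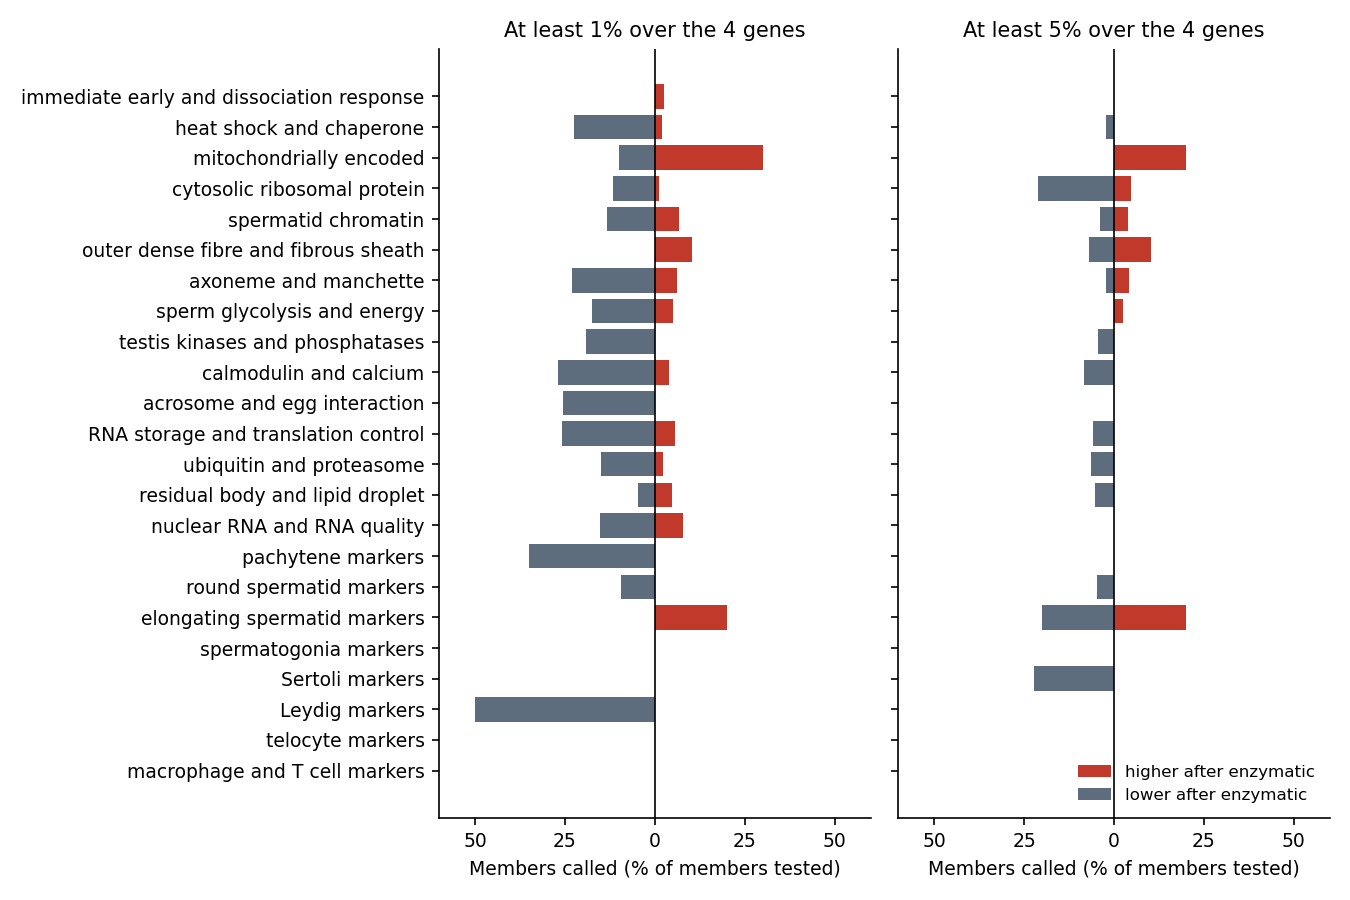
Members of each list that passed edgeR's test, as percent of members tested, higher (right) and lower (left) after enzymatic dissociation, in barcodes with at least 1% (left panel) and at least 5% (right panel) of UMIs over the 4 genes. Lists with 10 or more tested members are drawn. The lower calls of the pachytene, acrosome and RNA storage lists, 7, 10 and 9 genes at 1%, came to 0, 0 and 2 at 5%, while those over all genes went from 5.59 to 0.658%.

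Markers of pachytene spermatocytes were among the lower genes. Of 20 pachytene markers 7 were lower and 0 higher, with a median of -0.996, the lowest of the germ cell lists, and the 7 were 38.9% of the 18 members of at least 20 CPM, against 15%. Among the 7 were Mael, of the piRNA pathway, at 281 and 573 CPM against 589, 888 and 1124 (-0.9966, edgeR adjusted p = 0.0127, 0.246 without WT1), the cell cycle kinase gene Aurka (-1.43, edgeR adjusted p = 0.0102, 0.065 and 0.185 without WT1 or WT2), the cyclin gene Ccna1 (-1.29, edgeR adjusted p = 0.0127, 0.0605 and 0.275) and Pld6 (-3.23, edgeR adjusted p = 0.0114, 0.494 without WT2), the last with 1 UMI in each enzymatic library. WT3 was the lowest mechanical library for the list's sum as well, below both enzymatic ones. At 5% the counts were 0 and 0 of 20 in edgeR (0 and 3 at an unadjusted p under 0.05), with a median of -0.35. In DESeq2, at the share of 1%, 3 were lower and 0 higher. Of 21 round spermatid markers, 2 were lower (9.52%, against 15%), Lrrc34 (-0.77, edgeR adjusted p = 0.0454) and Tekt1 (-0.67, edgeR adjusted p = 0.0466), and leaving out any of 10 or 9 libraries took them past the threshold. At 5%, Tekt1 was lower (-1.14, edgeR adjusted p = 0.0317), 4.76% of the list against 0.658%. The part of pachytene RNA in the lower calls was not tested, and the stricter share also held fewer UMIs. In summed counts, fewer transcripts per cell and fewer transcript-bearing cells or fragments among the barcodes cannot be told apart.

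Immediate early and dissociation-response genes, the set that warm digestion is known to induce, gave 1 call. Of 39 tested members, 1 was higher and 0 lower in edgeR (6 and 1 at an unadjusted p under 0.05, and 4 and 0 by DESeq2), a share of 2.56% called higher against 4.27% of all genes, with a median of 0.12. The 11 members at 0 in both enzymatic libraries were too low in the mechanical ones for a limit of 3 UMIs. Without them the median was 0.54 over 28 members. Those 28 were selected for having enzymatic UMIs, so that value is no evidence of a rise. Of the 7 members of at least 20 CPM, 1 (14.3%, against 5.09%) was higher and the median was 0.76, against -0.27 for all genes at that level. The member was Per1, a clock gene that also responds to signals, at 137 CPM in WT1, 33.5 in WT2 and 17.6, 25.1 and 28.0 in the mechanical libraries (1.38, SE 0.33, edgeR adjusted p = 0.00825). Both enzymatic libraries lay above the mechanical ones, WT1 by far and WT2 just so, and the call was lost without WT1 (edgeR adjusted p = 0.413). The textbook members, singled out after their values were seen, were at a few UMIs. Fos had 0 UMIs in WT1 and 2 in WT2, with 0 to 1.28 CPM in the mechanical libraries (edgeR adjusted p = 0.305). Jun had 1 and 3 UMIs (6.55 and 5.29 CPM against 0 to 8.29, edgeR adjusted p = 0.932), Egr1 1 and 3 (6.55 and 5.29 CPM against 0 to 3.07, above all 9 mechanical libraries, 1.93, edgeR adjusted p = 0.247) and Junb 0 in each (edgeR adjusted p = 0.468). Each of the 4 had at most 3 UMIs in an enzymatic library. The whole list summed to 1172 CPM in WT1, 673 in WT2 and 456 to 574 in the mechanical libraries, above all 9 of them. In the other barcodes it was 960.2 and 696 against 318 to 515. At 5% it was 289 and 560.1 against 377 to 553, with WT1 below and WT2 just above the mechanical range.

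Calls among heat shock and chaperone genes were mostly lower in edgeR. Of 49 members, 1 was higher (Dnaja4, 0.63) and 11 were lower, with a median of -0.31, near that of all genes. Of the 37 members of at least 20 CPM, 10 (27%) were lower, against 15%. By DESeq2 3 were higher and 4 lower. The summed list was at 18949 CPM in WT1, inside the mechanical range of 16989 to 19940, and at 16699 in WT2, just below it. Hspa5, the chaperone of the endoplasmic reticulum, was at 183 CPM in WT1, 164 in WT2 and 192, 449 and 559 in the mechanical libraries (-1.36, SE 0.28, edgeR adjusted p = 0.00225, 0.0658 without WT2). WT3 lay just above the enzymatic pair. The chaperonin subunit gene Cct8 (-1.68, edgeR adjusted p = 0.00524, 0.224 without WT2), the mitochondrial chaperone gene Hspa9 (-1.0020, edgeR adjusted p = 0.0118, 0.0547 and 0.177 without WT1 or WT2) and Hsp90b1 of the endoplasmic reticulum (-0.89, edgeR adjusted p = 0.0257, 0.22 and 0.0874) followed. Of the genes that heat itself induces, singled out after their values were seen, Hspa1a had 0 UMIs in WT1 and 1 in WT2 (edgeR adjusted p = 0.924), and Dnajb1, which is abundant in spermatids, was at 118 and 171 CPM against 127, 297 and 368 (-0.91, edgeR adjusted p = 0.0365), with WT3 between the 2 enzymatic libraries. Hspa8, the constitutive member, had 1 and 2 UMIs against 8.99 to 23.5 CPM (edgeR adjusted p = 0.0452). Hsp90aa1 differed between the enzymatic libraries, at 2762 CPM in WT1 and 781 in WT2 against 885 to 1351 (0.61, edgeR adjusted p = 0.0998). At 5%, 1 member of 48, Dnajb3, was lower (2.08%, against 0.658%).

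Of the 10 mitochondrially encoded genes tested, 3 were higher and 1 lower. Of the 8 members of at least 20 CPM, 25% were higher and 12.5% lower, against 5.09 and 15%. The rRNA gene mt-Rnr1 was at 576 CPM in WT1, 226 in WT2 and 45.03, 97.9 and 124 in the mechanical libraries (1.94, SE 0.27, edgeR adjusted p = 2.9e-05), and it passed in every alternative that tested it. The summed level of all such genes was 8149 and 18389 CPM against 3524 to 27436, inside the mechanical range. At 5% it was 11980 and 10429 CPM against 3359 to 9153, above all 9 mechanical libraries, with 2 members higher (20%, against 1.94%) and 0 lower. Among the messages, mt-Cytb was at 78.5 and 125 CPM against 196 to 289 (-1.18, edgeR adjusted p = 0.003, 0.0537 without WT1). The others rested on WT2. There, mt-Co1 was at 319 CPM, against 39.3 in WT1 and 39.3 to 173 in the mechanical libraries (1.32, edgeR adjusted p = 0.0336), and mt-Nd3 at 21.1 against 0 and 0 to 4.11 (3.35, edgeR adjusted p = 0.00646). Without WT2 neither passed (edgeR adjusted p = 0.579 and 0.828), and mt-Co1 was at -1.28.

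The calls among genes annotated as pseudogenes were all in 1 direction. Of 1083 tested, 287 (26.5%) were higher after enzymatic dissociation and 0 lower in edgeR (475 and 7 at an unadjusted p under 0.05, and 248 and 0 by DESeq2), whereas of 13567 protein-coding genes 317 (2.34%) were higher and 917 (6.76%) lower. These shares were not matched for level. A gene needed at least 5 counts in all, so a pseudogene could enter the test through enzymatic UMIs alone. One at few CPM could hardly be called lower with so few enzymatic UMIs. The lack of lower calls is therefore no evidence of a direction. Pseudogene UMIs made up 11729 CPM in WT1, 17496 in WT2 and 6259, 6408 and 8655 (lowest, median and highest) in the mechanical libraries. Both enzymatic libraries thus stood above all 9, and the mean was 2.17 times that of the mechanical libraries (6746 ± 775, SD, n = 9). The same held in the other barcodes (11807 and 18046 against 6055 to 6967 CPM) and at 5% (9491 and 16546 against 6204 to 8721), so the excess was not limited to the chosen barcodes. Over all barcodes of a library the value was 11771 and 17778 CPM in the enzymatic and 6195 to 7695 in the mechanical wild-type libraries. In libraries of other genotypes it was 10024 and 10274 (Cul4a-/-), 3530.0 to 6439 (Mlh3-/-, 6 libraries) and 5400.2 and 5488 (CNP eGFP BAC TRAP). In the sorted cells, 1 library each, it was 9149 for spermatogonia, 5825 for primary and 8139.5 for secondary spermatocytes and 8644 for spermatids. The spermatogonia came from Pou5f1-EGFP transgenic mice aged 7 days. Besides WT1 and WT2, theirs was the only library the study lists as enzymatic. The Cul4a-/- libraries, above the mechanical wild-type range too, were dissociated mechanically. All these libraries also differed from the wild-type ones in age or strain background, so their values do not compare the protocols. Of the 10 higher genes with the smallest adjusted p, Gm6960, Gm14725 and Gm11560 carried this annotation, at 52.4 and 187, 98.2 and 77.5, and 26.2 and 148 CPM against at most 28.3, 18.0 and 19.7 in a mechanical library. Gm14725 also passed without WT2, the other 2 did not (edgeR adjusted p = 0.312 and 0.737). Tes3-ps, at 111 and 245 CPM against 7.66 to 30.9 (3.56, SE 0.29, edgeR adjusted p = 9.01e-09), is named as a pseudogene but annotated as protein-coding. Reads of such copies can be assigned to the parent gene or to the copy, so each of these counts is uncertain. The methods describe 1 pipeline for the libraries, with count tables made batch by batch.

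**Figure D4:**
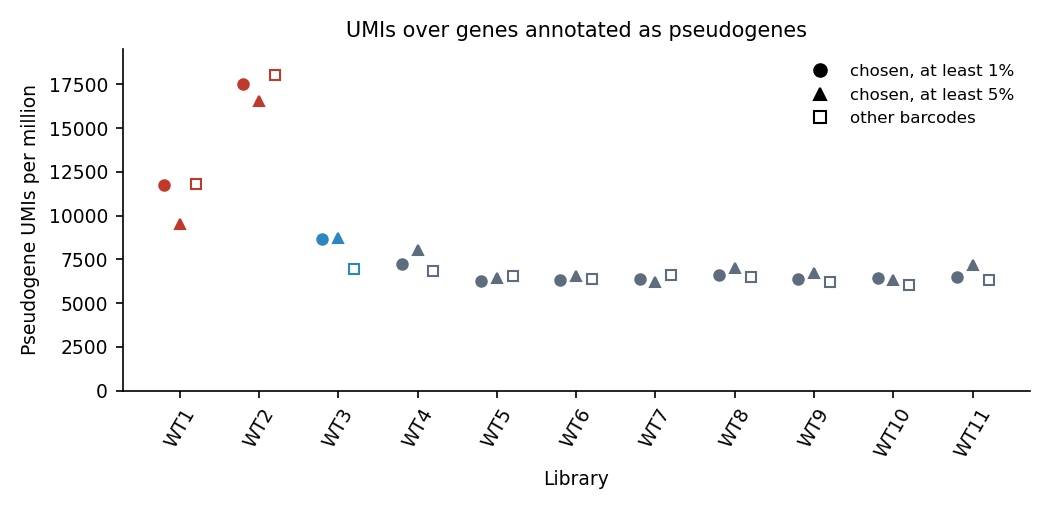
CPM summed over genes annotated as pseudogenes, by library, in the chosen barcodes (circles), those with at least 5% of UMIs over the 4 genes (triangles) and the other barcodes (open squares). Colours are as in the plot of named genes. WT1 and WT2 stood above all mechanical libraries in each class, at 11729 and 17496 against at most 8655 in the chosen barcodes.

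Parent genes were compared with their copies where the name ties the 2 together. Of 150 such pseudogenes, belonging to 86 parents, 48 (32%, against 4.27% of all genes) were higher and 0 lower. Here too, copies at few CPM could enter the test through enzymatic UMIs alone and could hardly be called lower. Of the 85 parents tested, at any level, 3 (3.53%) were higher and 9 (10.6%) lower, against 4.27 and 5.59% of all genes tested. Among genes of at least 20 CPM these shares were 5.09 and 15%. For the 2 parents of highest combined level, chosen after their values were seen, the copies took 1.23% (WT1) and 11.7% (WT2) of the summed UMIs of Eif1 and its copies against 0.0649 to 1.47% in the mechanical libraries, and 7.80% and 22.1% of those of Tubb4b against 6.49 to 14.1%. WT2 was thus outside the mechanical range for both and WT1 for neither. Of the 68 parents with a combined level of at least 20 CPM, the share taken by copies was above the mechanical range in WT1 for 29, in WT2 for 57 and in both for 23, and below it for 1 in each library. For Tpt1 it was 10.2% and 22.7% against 0.935 to 1.96%, and for Pafah1b1 2.78% and 4.78% against 0 to 0.549%, both chosen after their values were seen. Ribosomal protein genes, which have many such copies, gave 10 lower and 1 higher of 85, and at 5% 18 lower and 4 higher. The 10 were 12.7% of the 79 members of at least 20 CPM, against 15% of all genes at that level. At 5% the lower and higher calls were 21.2 and 4.71% of the list, against 0.658 and 1.94% of all genes, a background not matched for level. Rpl24, the higher one, was at 52.4 and 17.6 CPM against 0 to 3.92 (5.20, edgeR adjusted p = 2.53e-05), with 8 and 10 UMIs. Among the lower ones, Rpl9 was at 26.2 and 5.29 CPM against 82.9 to 199.7 (-3.43, edgeR adjusted p = 0.000154), Rps27a at 32.7 and 5.29 against 77.9 to 116 (-2.92, edgeR adjusted p = 0.000154) and Rpl7a at 32.7 and 19.4 against 97.8 to 170.0 (-2.45, edgeR adjusted p = 0.000163). None of these 3 passed without WT2 (edgeR adjusted p between 0.0648 and 0.131). The summed ribosomal protein RNA, at 20448 and 12054 CPM against 12016 to 29767, lay within the mechanical range.

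The remaining genes with the smallest adjusted p were of several kinds. Higher were Eif3j2, an initiation factor gene with a close paralog, at 209 and 42.3 CPM against 0 to 5.19 (5.01, SE 0.46, edgeR adjusted p = 7.26e-08), Wdr89 at 118 and 45.8 against 3.83 to 14.1 (2.95, edgeR adjusted p = 1.08e-05) and Gm614 at 58.9 and 139 against 16.5 to 26.5 (2.44, edgeR adjusted p = 1.97e-06, 0.229 without WT2). Eif3j2 and Wdr89 passed in all 25 alternatives. Lower were Elf2, a transcription factor of the ETS family, at 13.1 and 40.5 CPM against 82.2 to 234 (-2.31, edgeR adjusted p = 0.000151), which also passed in all 25, and Tox4 at 13.1 and 7.05 against 48.1 to 64.8 (-2.70, edgeR adjusted p = 0.000154, 0.0743 without WT2). Of the 74 calls of genes named by rule for the main comparison, 27 of 73 that could be tested also passed at 5%, and all 73 had the same direction there. Those barcodes are part of the chosen ones, so the shared direction is no independent evidence.

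Transcripts of Leydig cells, the interstitial cells that make testosterone, were lower in the enzymatic libraries. The 10 markers summed to 0 UMIs in WT1, which allows up to 19.6 CPM, to 88.1 CPM in WT2 and to 144, 226 and 454 in the mechanical libraries. That limit and the 2 below cover counting error only. Of the 10, 5 (50%, against 5.59% of all genes) were lower and 0 higher, and the median with members at 0 set to their limit was -1.27 over 9. By DESeq2 2 were lower and 0 higher, and at 5% 0 of 9 passed in edgeR (3 lower at an unadjusted p under 0.05), with sums of 0 and 38.8 CPM against 53.1 to 166. Cyp17a1, of androgen synthesis, had 0 and 1 UMIs against 23.0 to 79.6 CPM (edgeR adjusted p = 0.00139, 0.139 without WT2), and Ptgds 0 and 21 UMIs against 56.1 to 157 CPM (edgeR adjusted p = 0.0243, 0.189 without WT1). Cyp11a1 and Star, which start steroid synthesis, were at 0 in both, at least 2.40-fold and 2.02-fold lower than in the pooled mechanical libraries by the limit of 3 UMIs over both enzymatic libraries (edgeR adjusted p = 0.0291 and 0.0481, neither passing without WT1 or without WT2). In the other barcodes the list was at 9.80 and 44.6 CPM against 25.01 to 302, so the mechanical libraries held more of it in the chosen than in the other barcodes at the median (80.5 CPM). Sertoli cell markers were at 203 and 513 CPM against 362 to 617, with 0 of 11 passing in edgeR (1 lower at an unadjusted p under 0.05, 0 by DESeq2). In the other barcodes they were at 299 and 928 CPM against 79.6 to 249, above all 9 mechanical libraries. At 5% they were at 66.7 and 227 CPM against 238 to 452, below all 9 mechanical libraries, and 2 of 9 (22.2%, against 0.658%) were lower, Aard (-1.75, edgeR adjusted p = 0.0362) and Cst9 (-1.46, edgeR adjusted p = 0.0336). Nor did any of the 45 tested markers of spermatogonia (10), telocytes (11), peritubular myoid cells (5), endothelium (2), macrophages and T cells (12) or red cells (5) pass in edgeR, with 1 higher and 3 lower at an unadjusted p under 0.05 and 1 lower, of red cells, by DESeq2. At 5% the red cell marker Hbb-bs was lower in edgeR (-6.07, edgeR adjusted p = 0.00852). In the chosen barcodes at 1%, the summed levels in any library were at most 56.5 CPM for spermatogonia, 134 for telocytes and 13.1 for myoid cells. They were at most 10.6 for endothelium, 88.1 for immune cells and 78.0 for red cells.

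Whether the effect of the protocol differed between the chosen and the other barcodes of the same libraries was tested as an interaction with library as block. In edgeR, 292 of 19543 genes (1.49%) passed, 152 more positive and 140 more negative in the chosen barcodes, and 93 of them had also passed in the main comparison. The directions depended on the scaling, with 49 and 347 by library totals and 47 and 125 by DESeq2. Without WT2 19 genes passed, all more negative, and without WT3 631 passed. The smallest adjusted p belonged to Defb19, Cst12 and Cst9, genes of Sertoli cells. Cst9 was at 44.1 and 225 CPM in the other barcodes of WT1 and WT2 against 27.9 ± 11.4 (SD, n = 9) in those of the mechanical libraries, but at 26.2 and 107 against 109.9 ± 25.7 in the chosen ones, a difference of log2 fold changes of -2.74 (SE 0.31, edgeR adjusted p = 1.96e-14). Defb19 (-2.89, edgeR adjusted p = 6.89e-16) and Cst12 (-3.03, edgeR adjusted p = 2.86e-13) also had negative differences. Of the 11 Sertoli markers tested in the main comparison, 6 passed. Among spermatid genes, Calm2 was at 132 and 199 CPM against 1002 ± 107 (SD, n = 9) in the others, an interaction of 0.92 (edgeR adjusted p = 0.0483), a call that was lost in 20 of the 25 alternatives. Eif4e (1.36, edgeR adjusted p = 0.000437), Gabarapl1 (1.34, edgeR adjusted p = 0.000128) and Tekt5 (1.41, edgeR adjusted p = 0.0043) had more positive differences in the chosen barcodes than in the others. At 5% these 3 were 0.59, 0.32 and 0.36 and did not pass (edgeR adjusted p = 0.691, 0.905 and 0.953), and Tekt5 did not pass by DESeq2 either (adjusted p = 0.0763). Odf1 (edgeR adjusted p = 1), Cylc2 (0.981) and Prm3 (0.438) had interactions of 0.04, -0.09 and 0.40 (SE 0.22, 0.19 and 0.19). The other 2 of the 5 smallest adjusted p, Slc25a4 (-6.69, 1 and 0 UMIs in the chosen barcodes of WT1 and WT2) and Mrps10 (4.23, 2 and 52 UMIs), rested on few UMIs. With the chosen barcodes at 5%, 25 genes passed, and the value for Mrps10 turned to -1.74.

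The 2 enzymatic libraries were far apart for some genes. Among the largest ratios of genes of at least 20 CPM were those of Rpl11 (177 CPM in WT1, 1.76 in WT2, 265 to 536 in the mechanical libraries), Rps27 (295, 0, 65.4 to 360.2) and Rps28 (393, 10.6, 41.9 to 298). All 3 encode ribosomal proteins and were nearly absent from WT2. In the other direction, the pseudogenes Gm9795 (257 CPM) and Gm2199 (148), Slc30a2 (141), a zinc transporter gene, and Dusp21 (72.3), a phosphatase gene, were found in WT2 and at 0 in WT1. The mechanical libraries held 10.4 to 22.9, 3.92 to 23.2, 1.72 to 69.4 and 28.9 to 54.9 CPM of these 4. Of the genes the study tied to batches, 11 in 1 group (among them Rpl11) summed to 3567 CPM in WT1, 2242 in WT2 and 2648 to 8510.2 in the mechanical libraries, with 1 of 11 lower (Rpl11, 9.09% against 15% of genes of at least 20 CPM), 5 lower at 5% (45.5% against 0.658%) and a median of -0.63, and 6 tested in another (among them mt-Rnr1) to 8555, 17572 and 2956 to 26561, with 1 of the 6 higher (mt-Rnr1, 16.7% against 4.27%) and a median of 0.44. Both lists were picked on these libraries, so their direction is no independent evidence.

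At equal depth, chosen barcodes of the enzymatic libraries held fewer genes. After thinning each to 300 UMIs, a barcode of WT1 had 240.5 genes on average and one of WT2 239.2, against 258 ± 7.00 (SD, n = 9) in the mechanical libraries, a difference of -17.8 genes (two-sided exact permutation test over the 55 groupings of libraries, p = 0.0364, with 0.0182 the smallest p possible). Unthinned, the means were 1094 genes in WT1, 525.9 in WT2 and 408 to 699 in the mechanical libraries. Within the MiSeq pair WT3 had 240.5 genes as WT1 did. There, WT1 and WT3 stood at 169.3 and 167.9 genes at 200 UMIs, at 371 and 377 at 500 UMIs, at 216.5 and 229.1 at 5% and at 175 and 179 without the 4 genes. Within HiSeq WT2 lay below all 8 mechanical libraries (256.9 to 265.9). At 5%, the libraries stood at 216.5 and 233.4 against 234 ± 2.88 (SD, n = 9), a difference of -8.80 (exact permutation p = 0.0909), with WT2 inside the mechanical range of 229.1 to 238.1. With the 4 genes left out before thinning to 200 UMIs, the difference was -8.33 (exact permutation p = 0.0182).

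**Figure D5:**
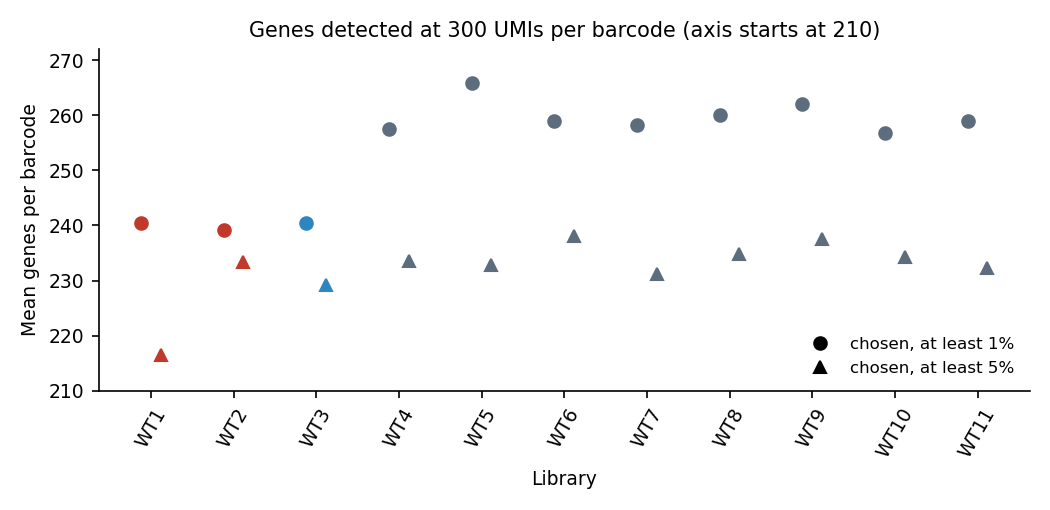
Mean number of genes per barcode after thinning to 300 UMIs, by library, for barcodes with at least 1% (circles) and at least 5% (triangles) of UMIs over the 4 genes. Colours are as in the plot of named genes. WT1, WT2 and WT3 lay at 239.2 to 240.5 genes and the other mechanical libraries at 256.9 to 265.9.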

How the data were processed

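The files deposited by the authors held raw UMI counts per gene and barcode, 1 table per library. Per the paper's methods and the submitters' processing notes, reads were aligned with STAR 2.5.3a to the mm10 build and collapsed to UMIs. Values analysed here were those counts, without normalization. No doublet caller was run.

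Counts of barcodes with at least 300 UMIs and at least 1% over the 4 genes were summed per library, and genes with at least 5 counts in all were tested with edgeR 4.0.16 (R 4.3.3, TMM, quasi-likelihood, Benjamini-Hochberg, threshold 0.05). DESeq2 1.42.0 was the alternative tool. The interaction was fitted on 2 sums per library with library as block, so for it the library is its own control. Log2 fold changes are enzymatic over mechanical. Genes per barcode were compared after thinning, by an exact permutation test over libraries. The edgeR and DESeq2 fits were tested on simulated data.

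The members, gene lists and comparisons were chosen with earlier results of these data known. Genes were named by rule: among called genes of at least 20 CPM with the enzymatic libraries outside the mechanical range, the 10 higher and 10 lower of smallest adjusted p, up to 4 called genes per list, the 5 of smallest adjusted p in the interaction, the 4 of largest ratio between WT1 and WT2 in each direction, the 4 genes of the rule and genes of calmodulin. Every cut at 20 CPM used the mean over all 11 libraries, so genes high in the enzymatic ones could pass through these alone. Among the 10 higher genes this held for Eif3j2, Wdr89, Gm11560, Gm14725, Gm6960, Pabpn1 and Tes3-ps. Their mechanical means lay between 2.74 (Eif3j2) and 16.2 CPM (Tes3-ps). Other called genes were named after their values were seen. Some genes that this rule names are not reported here. Coordinates and gene types came from GENCODE M21 (GRCm38), which matched 22048 of 23913 symbols, with 94.7% of UMIs. Of 90 named genes, 28 overlap another counted gene, 10 of them on the same strand, and reads of such genes may be shared.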

Additional observations from a re-analysis of the deposited data

Results flagged for a closer look

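In 28 of 95 measures, 1 of the 9 mechanical libraries lay far from the other 8, where chance gives about 1 in 20. WT3 was that library in 25 of them. It held 240.5 genes per barcode at 300 UMIs, 8655 CPM over pseudogenes and a median of 9.23% of UMIs over the 4 genes. Its levels were low for Zpbp2 (233.0 CPM), Pabpc6 (242.8), Calm2 (207.5), Hspa5 (191.9), Cct8 (37.2), Hsp90b1 (307), Dnal1 (17.6), Ccdc39 (156.6), Vdac2 (295.6), Cyct (68.5), Slc25a31 (9.79), Calr (193.8), Adam1b (58.7), Zpbp (207.5) and Pabpc1 (1999). Its levels were high for Rpl9 (199.7 CPM), Rpl24 (3.92), Gpx4 (516.8), Rpl11 (536), Rps27 (360.2), Prm1 (26815) and Prm2 (32580.3). WT4 stood high for Ppp1cc (224.9 CPM) and Gm2199 (23.2), and WT9 for Slc30a2 (69.4). For the 15 genes with low levels, WT3 was the mechanical library nearest to the enzymatic ones.

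For 16 genes named by rule the difference between protocols itself differed between the chosen and the other barcodes of the same libraries, by edgeR's interaction test. Hspa8, which was singled out after its values were seen and is not among the 16, also passed (-2.97). The log2 fold change was lower in the chosen barcodes for Zpbp2 (difference -1.05), Hdac1 (-1.39), Hspa5 (-0.85), mt-Cytb (-0.94), Dnal1 (-2.55), Malat1 (-0.82), Lrrc34 (-0.90), Defb19 (-2.89), Cst9 (-2.74), Cst12 (-3.03) and Slc25a4 (-6.69). It was higher there for Calm2 (0.92), Tekt5 (1.41), Eif4e (1.36), Gabarapl1 (1.34) and Mrps10 (4.23). Of these 16, 10 of 15 tested passed by DESeq2, 12 without WT1, 0 without WT2 and 5 at 5% (mt-Cytb, Defb19, Cst9, Cst12 and Slc25a4), where the difference was -0.41 for Zpbp2 and -0.14 for Malat1.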

How the results depend on the processing

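The calls of the main comparison, 1743 by edgeR, came to 328 at a share of at least 5% and 762 with sums thinned to equal depth (504 higher, 258 lower). Leaving out 1 library gave 416 (without WT2) to 2579 (without WT3), with 947 without WT1. The 5% share with changes chosen after seeing the data gave 325 with platform as covariate, 381 within HiSeq, 277 without WT1, 237 without WT2 and 325 without the 4 genes. The interaction, 292 calls, gave 172 by DESeq2, 109 with filterByExpr, 706 within HiSeq, 25 at 5%, 462 at 500 UMIs, 469 at no more than 5% mitochondrial UMIs and 31 with thinned sums. Leaving out 1 library gave 19 (without WT2) to 631 (without WT3). The later 5% settings gave 19, 42, 21, 47 and 26 in the order above. With 1 enzymatic library left, that library is assumed to vary like the others. The difference in genes per barcode was -8.80 at 5% (exact permutation p = 0.0909), and -19.9 to -16.8 with 1 library left out. Without WT1 (exact permutation p = 0.1) or WT2 (0.2) the smallest p possible was 0.1.

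Of the 74 calls of genes named by rule for the main comparison, 63 passed in DESeq2, 46 of 73 without WT1, 35 without WT2 and 27 of 73 at 5%. For 71 the direction was the same in every alternative with a test. Without WT2 the sign turned for mt-Nd3 (-4.15), mt-Co1 (-1.28), Dynlt1b (-6.69) and the interaction of mt-Cytb (0.46). WT1 held 0 UMIs of mt-Nd3 and Dynlt1b, so their fitted values without WT2 are no measured folds. Within the MiSeq pair, WT1 over WT3, which gives values with no test and no count of calls, it turned for Cct8 (0.30), Hsp90b1 (0.12), mt-Co1 (-1.70), Gpx4 (-0.40), Slc2a3 (0.29), Ppp3cc (0.11), Calr (0.16), Pabpc1 (0.56), Malat1 (0.0063), Ccna1 (0.041) and Lrrc34 (0.29). The interaction of Mrps10 turned at 5% (-1.74). Calm3, not called, was positive by DESeq2 (0.12), library totals (0.0096), filterByExpr (0.10), without mitochondrial genes (0.0017), with thinned sums (0.12), without WT2 (0.11) and without WT7 (0.017). With 1 library left out, the ranges were -4.15 to 3.91 for mt-Nd3, -1.28 to 2.01 for mt-Co1, -6.69 to 3.64 for Dynlt1b, -0.20 to 0.11 for Calm3 and -1.52 to 0.46 for the interaction of mt-Cytb. The causes were not tested.

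No paired analysis was possible because the enzymatic and the mechanical wild-type libraries share no replicate number. The 2 enzymatic libraries, 58 and 457 barcodes, limit all of the above, and protocol cannot be told apart from any other property that WT1 and WT2 share.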
